A study of Mus musculus with 7 samples.

Results

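The ectodysplasin pathway was followed here through 6 genes, namely the ligand gene Eda, the receptor genes Edar, Eda2r and Tnfrsf19, and the adaptor genes Edaradd and Traf6. The genes were chosen by name, with earlier results of these data known. Every non-control probe carrying their names was taken, which gave 11 of the 55681 probes on the array. A probe was tested when the scanner software flagged it as well above background on 3 or more arrays, and 7 of the 11 probes, from 5 of the 6 genes, passed. Edar passed that filter through its AER arrays alone, so the count of differing genes among those that passed is given as a description. The forelimbs were those of C57/Bl6 mice at embryonic day 11.5, with no mutation or treatment named in either group. For 3 arrays, RNA was taken from the microdissected apical ectodermal ridge (AER), a strip of tall epithelium at the edge of the limb bud whose secreted factors keep the limb growing out. Surface ectoderm of the posterior limb, the flat epithelium next to the ridge, filled the 4 control arrays. Every array held RNA pooled from 2 to 3 mice, so the spread between arrays is one between pools, and p-values measure only that spread. The file names give ectoderm replicates 2 and 4 a shared number, and these were the closest pair of arrays across genes (r = 0.995), so whether they came from separate pools is not known. Averaged as 1 sample, they left 2268 differing genes in place of 3268 and the same 4 pathway genes past the threshold.

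Ectodysplasin A is a ligand of the tumour necrosis factor (TNF) family, and different splice forms of it bind Edar and Eda2r. Edar hands the signal to its own adaptor Edaradd, which recruits TRAF proteins and a kinase complex that frees the transcription factor NF-kappaB from its inhibitors. In the mouse the pathway is known for the placodes of hairs, teeth, sweat glands and mammary glands. Tnfrsf19, also called Troy, is a related receptor that acts alongside Edar in some mouse hair follicles.

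Signals are given as processed signal units of the scanner software, and log2 levels are relative to the 75th percentile of each array, which lay between 341 and 563 units in AER and between 257 and 444 units in ectoderm. The 7 arrays shared 1 slide and 1 scan time, and 0 probes were saturated. The ridge gene Fgf8 gave 19553, 48489.7 and 36532 units on AER replicates 1, 2 and 3, against 81.7, 166, 1176 and 131 units on ectoderm replicates 1 to 4, so ectoderm replicate 3 stood above its group. Markers of tissue below the epithelium were higher on the ectoderm arrays. Summed levels of 10 limb mesenchyme markers, as multiples of the 75th percentile, were 199 to 227 in AER and 376 to 599 in ectoderm, and those of 8 muscle progenitor markers were 0.395 to 3.35 in AER and 49.2 to 129 in ectoderm. Summed levels of 20 pan-epithelial markers were 300.0 to 312 in AER and 98.8 to 147 in ectoderm. Of the endothelial, erythroid, macrophage and neural marker lists, 0 genes passed limma's test after adjustment. At an unadjusted p of 0.05 limma called 1 erythroid gene lower, 1 macrophage gene higher and 1 neural gene in each direction. Over all genes tested, 6364 of 20840 had an unadjusted p under 0.05 in either direction. In such bulk samples, fewer cells of a type and less RNA per cell cannot be told apart, and the part of these mixtures in the pathway results was not tested. Values from arrays centred on the pan-epithelial markers are given beside the results.

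The probes decide which transcripts were read. The last 30 of the 60 bases are shown for the probes on which the results turn. Their mm9 positions were worked out from the probe coordinates deposited with each spot. The capitals mark AATAAA, the letters of the polyadenylation signal, which 10.1% of the 55681 probes hold. The first Eda probe (chrX:97596069-97596098, plus strand) has this hexamer and gave signal on every array, and the second (chrX:97590398-97590427, plus strand) was not well above background on any array. The Edar probe lies at chr10:58064202-58064231 and the Tnfrsf19 probe at chr14:61582873-61582902, both on the minus strand. The brighter Edaradd probe lies at chr13:12570074-12570103 and the dimmer at chr13:12565820-12565849, both on the minus strand.
Eda, probe A_55_P2030662: attctttgcaAATAAAgtgctcccctcacc
Eda, probe A_55_P2030667: tatgaaccctaaggtgtttaaactacatcc
Edar, probe A_66_P111658: aggaccataattaggtcctgaatttttaat
Edaradd, probe A_51_P173162: tccgcatacagaatcccatacagaatctct
Edaradd, probe A_55_P2247285: tgagcaaagactttcccccaggtctttttt
Tnfrsf19, probe A_55_P2012439: tactctaaagagtgctgctgtctgtgttag

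The 250 bases before the start site are shown for Eda, its receptor gene Edar and the adaptor gene Edaradd. Tnfrsf19, which also differed, has 2 start-site regions that are not shown. They come from RefSeq on the GRCm38.p6 build, and a region was found for all 6 genes. The letters CTTTGA and CTTTGT, core letters bound by TCF/LEF factors, GGGCGG, the GC box of Sp factors, and the consensus of NF-kappaB sites were searched on both strands, and no matches overlapped in the sequences shown. Capitals mark the matches. Edar (chr10:58675697-58675946, minus strand) had 1 CTTTGA that began 233 bases before the start site, a motif held by 13.8% of 32851 regions of the same length. Edaradd (chr13:12520451-12520700, minus strand) had 1 CTTTGT beginning 145 bases before the start site, against 16.5% of regions. Eda (chrX:99975356-99975605, plus strand) had 6 copies of GGGCGG, of which 32.7% of regions hold at least 1 copy, and its GC content was 75.6%, against 58.8% in Edar and 46% in Edaradd. The NF-kappaB consensus, present in 7.25% of regions, was found in 0 of the regions of the 6 genes. The regions of Tnfrsf19 held 1 CTTTGA and 3 GGGCGG in the first and 0 of these in the second. These matches describe the letters of the windows and no binding was measured.
Edar: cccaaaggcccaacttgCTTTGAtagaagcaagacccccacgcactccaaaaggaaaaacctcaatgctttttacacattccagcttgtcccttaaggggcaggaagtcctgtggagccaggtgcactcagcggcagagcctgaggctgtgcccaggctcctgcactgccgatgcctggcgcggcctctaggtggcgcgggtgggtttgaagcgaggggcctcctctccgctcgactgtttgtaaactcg
Edaradd: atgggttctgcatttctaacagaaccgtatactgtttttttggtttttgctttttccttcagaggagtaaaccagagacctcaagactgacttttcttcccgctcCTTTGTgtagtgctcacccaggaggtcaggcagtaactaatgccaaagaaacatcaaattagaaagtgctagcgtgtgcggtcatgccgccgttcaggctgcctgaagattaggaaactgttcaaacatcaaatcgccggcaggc
Eda: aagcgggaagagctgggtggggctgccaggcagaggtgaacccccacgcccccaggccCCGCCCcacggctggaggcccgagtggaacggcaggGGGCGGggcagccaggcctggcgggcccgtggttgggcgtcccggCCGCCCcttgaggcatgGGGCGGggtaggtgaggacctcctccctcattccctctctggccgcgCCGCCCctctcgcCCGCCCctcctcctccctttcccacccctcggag

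The question of the comparison, as the series states it, is which transcripts distinguish the AER from neighbouring surface ectoderm. Relative to the 75th percentile, Edar, Edaradd and Tnfrsf19 were higher and Eda was lower in AER, while Traf6 did not pass the test. Centring the arrays on pan-epithelial markers instead changed every log2 difference by -1.91. The size of that shift alone turned the smaller positive differences of Edaradd, Tnfrsf19 and Traf6 negative. It left the fitted difference of Edar positive and that of Eda negative. The lower bound for Edar, 2.03 on the log2 scale and 4.09-fold, is only slightly larger than this shift. Among the 5 genes tested, 3 were higher, against 7.02% of all 20840 genes tested, and 1 was lower, against 8.66%. These counts are a description, since the genes were chosen with earlier results known and Edar passed the filter through its AER arrays alone. In all, 15.7% of genes passed an adjusted p of 0.05 in limma's moderated test, and the median log2 difference was 0.93 over the 5 genes and -0.08 over all genes tested. The plot of every probe by array shows the values behind these counts.

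**Figure D1:**
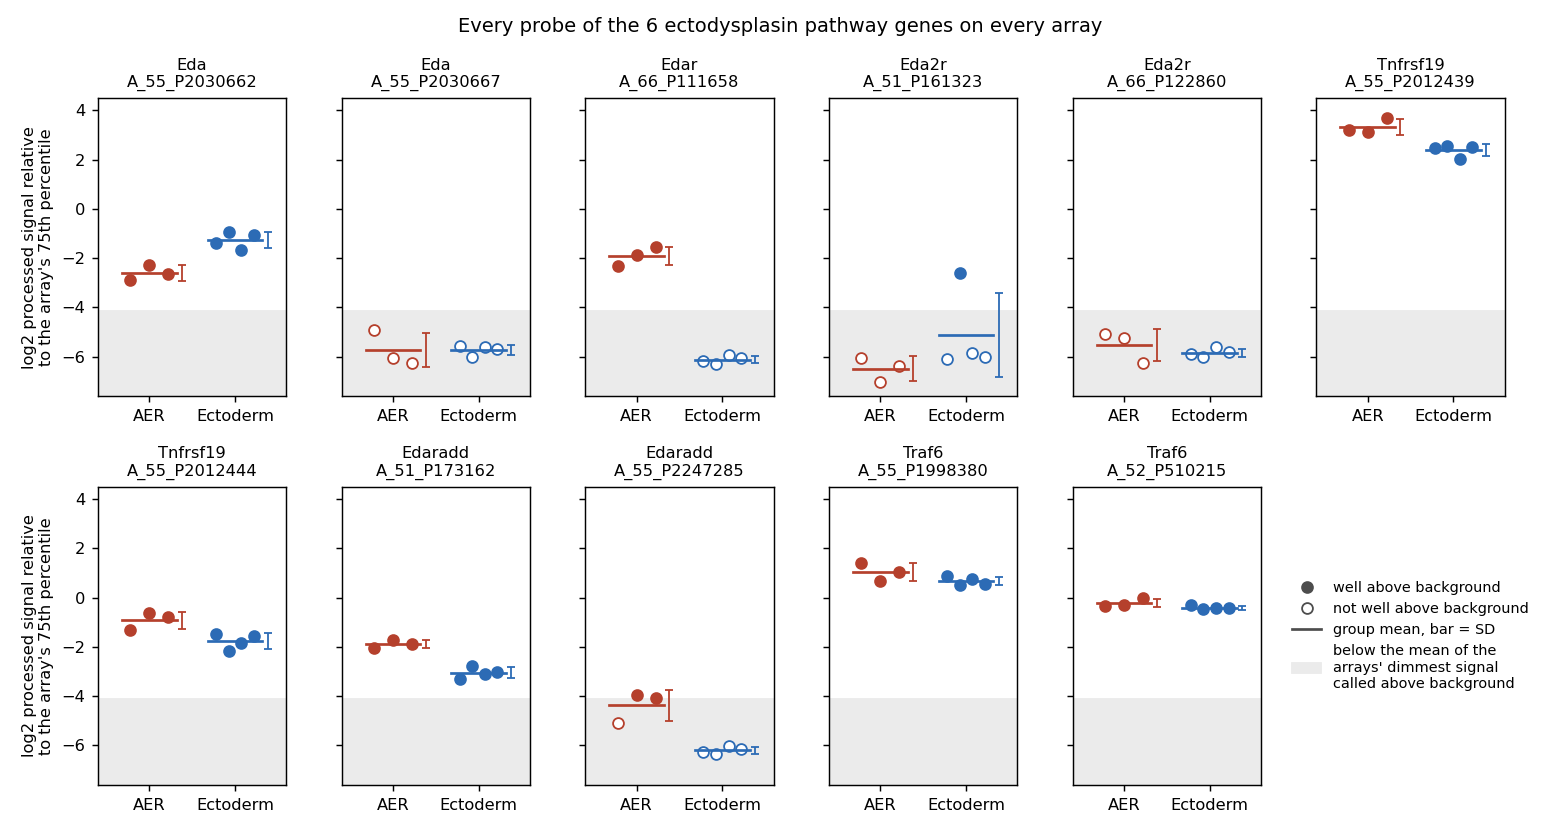
Log2 processed signal relative to the array's 75th percentile for each of the 11 probes, with AER arrays (n = 3) left and ectoderm arrays (n = 4) right in each panel. Points are arrays, filled where well above background and open where not, lines are group means, bars are SDs, and the shaded band lies below the mean of the arrays' dimmest signal called above background. Edar is filled on the 3 AER arrays and open on the 4 ectoderm arrays, while the first Eda probe lies lower on every AER array than on any ectoderm array.

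Eda encodes the ligand of the pathway. Its detected probe gave 45.6, 116 and 62.8 units on AER replicates 1, 2 and 3, against 158, 234, 81.1 and 165 units on ectoderm replicates 1 to 4. In these unscaled units AER replicate 2, the array with the highest 75th percentile, overlapped ectoderm replicate 3, the array with the lowest. On the scaled log2 levels the groups did not overlap, with -2.90, -2.27 and -2.64 in AER and -1.37, -0.93, -1.66 and -1.06 in ectoderm. Groups without overlap were found for 30.3% of all genes tested. The mean level was -2.61 ± 0.31 in AER (SD, n = 3) and -1.26 ± 0.33 in ectoderm (SD, n = 4). Eda was 2.55-fold lower in AER (95% interval 1.78 to 3.65), a log2 difference of -1.35 (SE 0.23) with an adjusted p of 0.00442. With the normexp background correction the difference was -0.71, and in the authors' deposited values it was -0.65, with adjusted p of 0.0106 and 0.0260. The second Eda probe, which the array design ties to a different RefSeq transcript of the gene and which lies 5671 bases away, stayed at 5.22 to 11.2 units in AER and 5.24 to 8.65 units in ectoderm, below background throughout. A difference in that transcript was therefore not detectable with this probe. The mesenchyme and muscle marker sums given above were higher in the same arrays in which Eda was higher, and their part in the difference was not tested.

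Edar encodes the death-domain receptor that binds Eda. Its single probe gave 68.6, 156 and 133 units on AER replicates 1, 2 and 3, against 5.69, 5.69, 4.21 and 5.15 units on ectoderm replicates 1 to 4. It was well above background on 3 of 3 AER arrays and on 0 of 4 ectoderm arrays, so the ectoderm values have no order among themselves. The mean level was -1.91 ± 0.38 in AER (SD, n = 3), and the measured ectoderm mean was -6.11 ± 0.15 (SD, n = 4). With each ectoderm array raised to the lowest signal that any of its probes above background had, Edar was at least 4.09-fold higher in AER. Limma gave the fitted difference an adjusted p of 1.35e-05. That p rests on ectoderm signals at background and does not test the bound. Of the 1464 genes called higher in AER, 158 were above background on every AER array and on no ectoderm array, Edar among them. Such genes can pass the filter only through their AER arrays. Ectoderm replicate 3, which carried more Fgf8 signal than the other ectoderm arrays, showed no Edar signal above background. Its Fgf8 signal was 1176 units, against 19553 units or more in AER, and its lowest signal above background was 19.1 units. A like share of the AER signal of Edar would lie below that level, so nothing can be read from this absence. The fitted log2 difference, which includes ectoderm values at background and is not a measured size, was 4.203 as reported and 1.18 with normexp, 1.27 in the authors' deposited values and 2.29 when arrays were centred on pan-epithelial markers. The adjusted p values of these were 0.00241, 0.00111 and 3.72e-06. With 1 probe for the gene there was no second reading of Edar on the array.

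Eda2r encodes the receptor of the other splice form of the ligand. Its probe at chrX:94531320-94531379 (minus strand, mm9) was well above background on 0 of 3 AER arrays and 1 of 4 ectoderm arrays, and its other probe at chrX:94534281-94534340 on 0 of 7 arrays. The first probe read 4.28 to 5.15 units in AER, and in ectoderm it read 73.8 units on replicate 2 and between 4.49 and 5.99 units on the other ectoderm arrays. Eda2r therefore did not enter the test, and no level above background was repeated in a second pool of either group.

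Tnfrsf19 encodes the Troy receptor. Its brighter probe gave 3090.3, 4846 and 5033 units on AER replicates 1, 2 and 3, against 2245, 2593, 1054 and 1972 units on ectoderm replicates 1 to 4. Every AER array was above every ectoderm array in these units and on the scaled levels. The mean level was 3.32 ± 0.31 in AER (SD, n = 3) and 2.39 ± 0.24 in ectoderm (SD, n = 4). Tnfrsf19 was 1.91-fold higher in AER (95% interval 1.39 to 2.63), with an adjusted p of 0.0148, but the difference turned to -0.98 on the log2 scale when arrays were centred on pan-epithelial markers. The dimmer probe, 6794 bases away, gave 135, 360 and 225 units in AER and 147, 98.2, 71.8 and 116 units in ectoderm. It was 1.79-fold higher in AER, with an adjusted p of 0.0431 over the 28296 probes tested, of which 15% passed. This was the least stable of the 4 calls, since the adjusted p was 0.176 with normexp and 0.137 in the authors' deposited values, where the log2 difference was 0.56 and 0.63.

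Edaradd encodes the adaptor that couples Edar to the kinases below. Its brighter probe gave 82.9, 171 and 106 units on AER replicates 1, 2 and 3, against 41.4, 64.0, 30.3 and 42.9 units on ectoderm replicates 1 to 4. Every AER array again lay above every ectoderm array. The mean level was -1.88 ± 0.16 in AER (SD, n = 3) and -3.05 ± 0.21 in ectoderm (SD, n = 4). Edaradd was 2.24-fold higher in AER (95% interval 1.72 to 2.92), with an adjusted p of 0.00200, but the difference was -0.75 on the log2 scale when arrays were centred on pan-epithelial markers. With normexp the log2 difference was 0.71, with an adjusted p of 0.0108. The dimmer probe, 4254 bases away and tied to the same transcript, gave 10.01, 36.5 and 23.2 units in AER and 5.34, 5.38, 3.97 and 4.85 units in ectoderm. It was well above background on 2 of 3 AER arrays and 0 of 4 ectoderm arrays and did not pass the filter. Unlike Edar, the brighter Edaradd probe was above background on all 4 ectoderm arrays.

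Traf6 encodes a ubiquitin ligase shared by many receptors, which Edaradd recruits. Its brighter probe, at chr2:101519206-101519265 on mm9, gave 906, 906 and 813 units on AER replicates 1, 2 and 3, against 754, 641, 430 and 506 units on ectoderm replicates 1 to 4. Its other probe, at chr2:101540660-101540719, gave 272, 451 and 388 units in AER and 332, 320, 189 and 255 units in ectoderm. On the scaled levels the groups overlapped for both probes. The log2 difference was 0.37 (95% interval -0.08 to 0.82, adjusted p 0.240) for the brighter probe. For the other it was 0.19 (95% interval -0.15 to 0.53, adjusted p 0.412 over probes). The intervals leave room for a difference in either direction and do not show that the tissues are alike. Centred on pan-epithelial markers the brighter probe gave -1.54.

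The receptor-side genes and the ligand gene were also compared within each array, where scaling has no part. Of 4 such pairs, the 2 with Edar have no measured size, since Edar lay at background in ectoderm. The log2 difference between the Edaradd and Eda signals was greater in AER than in ectoderm by 2.51, and that between Tnfrsf19 and Eda by 2.28, without overlap between the groups. Each gave an exact two-sided permutation p of 0.0571 and an adjusted p of 0.0571 over the 4 pairs, the smallest p that 3 against 4 arrays allow, so this test could not pass 0.05. The pairs were chosen with the direction of each gene known. Both values follow from the gene differences given above, and genes that separate in opposite directions must also separate as a pair. They therefore add no independent result.

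The arrays lay in 2 rows of the slide by the position numbers that the files record, and no label names row a batch. Row 1 held AER replicate 1 and ectoderm replicates 1, 2 and 3, and row 2 held AER replicates 2 and 3 and ectoderm replicate 4, so each row has a group with 1 array, assumed to vary like the other group. Edar was above background on the AER arrays and on no ectoderm array of either row. Eda differed by -1.58 in row 1 and -1.39 in row 2 on the log2 scale, with adjusted p of 0.0876 and 0.0993. Edaradd differed by 1.02 and 1.20, with adjusted p of 0.124 and 0.191, and Tnfrsf19 by 0.84 and 0.88, with adjusted p of 0.182 and 0.486. These differences had the sign of the whole set in each row, and none passed the test there. With row as a block over all arrays, Eda (-1.49), Edar (4.07) and Edaradd (1.11) passed and Tnfrsf19 (0.86) had an adjusted p of 0.0503.

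**Figure D2:**
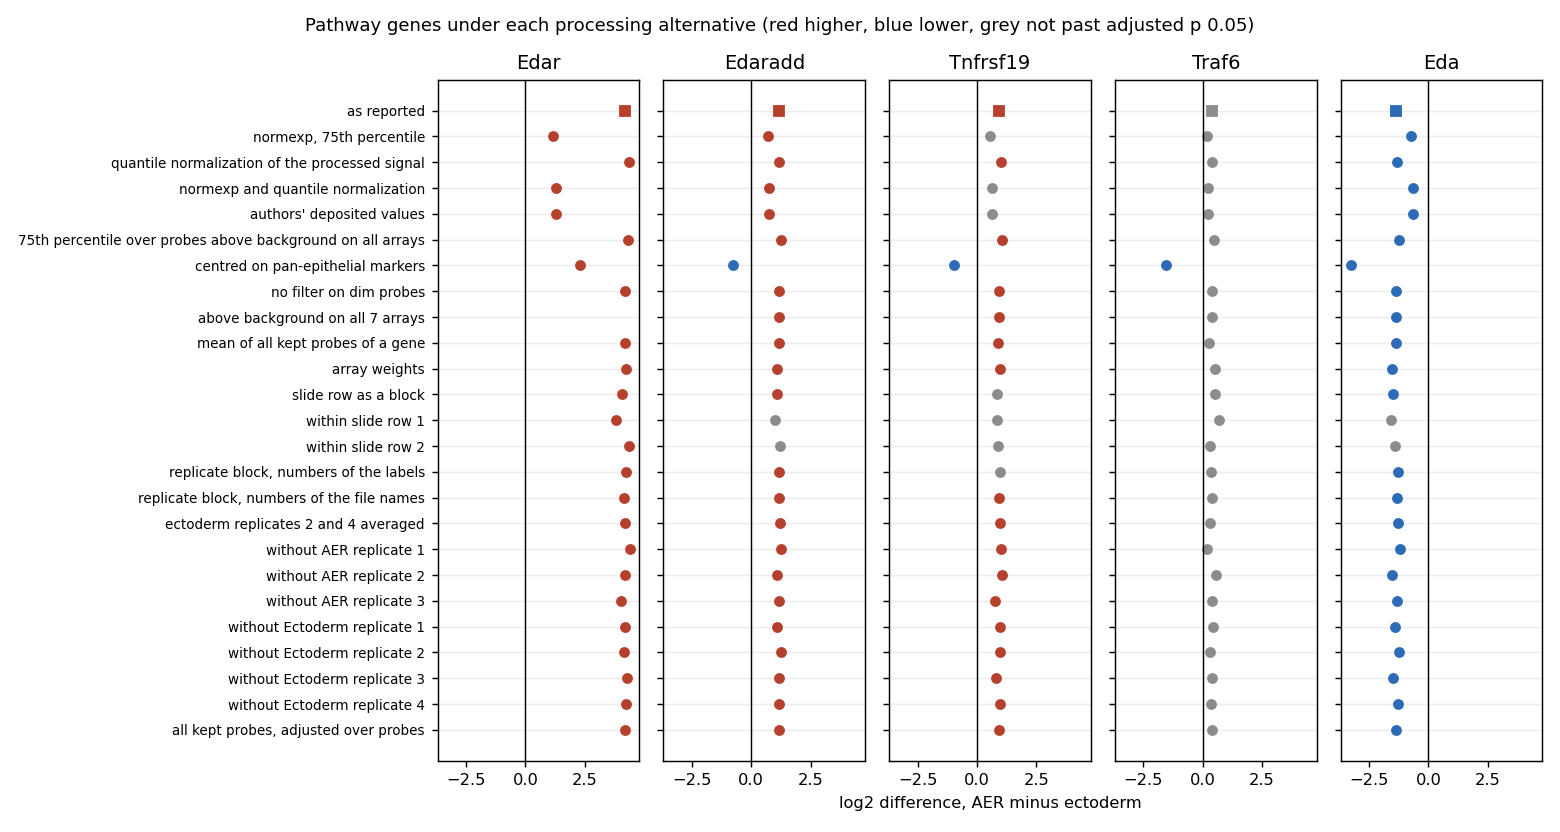
Log2 difference, AER minus ectoderm, of the 5 tested genes as reported (squares) and under each processing alternative (circles), in red where higher, blue where lower and grey where not past an adjusted p of 0.05. Edar, as a fitted value with ectoderm at background, stays right of 0 and Eda left of 0 in every row shown. Edaradd, Tnfrsf19 and Traf6 cross to the left when arrays are centred on pan-epithelial markers.

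Below the adaptors, the signal passes through the kinase Tak1, encoded by Map3k7, and the IKK complex to NF-kappaB. The list of 20 kinase and NF-kappaB genes had 19 tested members, of which 1 was higher, against 7.02% of all genes, 0 were lower, against 8.66%, and 18 did not pass. At an unadjusted p of 0.05, 3 were higher and 0 lower, against 6364 of all 20840 genes in either direction. The median log2 difference was 0.00, against -0.08 over all genes. The gene that passed was Traf3ip2, an adaptor that links interleukin 17 receptors to TRAF6. It gave 185, 373 and 261 units on AER replicates 1 to 3 and 130, 182, 68.1 and 119 units on ectoderm replicates 1 to 4. Traf3ip2 was 1.88-fold higher in AER (adjusted p 0.0109), but the log2 difference was -1.001 when centred on pan-epithelial markers and 0.31 (adjusted p 0.285) with normexp. The kinase subunits and NF-kappaB subunits named next were chosen after their values were seen. Chuk (IKK alpha) had a log2 difference of 0.45 (adjusted p 0.101), Nfkb1 of 0.45 (0.129) and Rela of -0.22 (0.340). Ikbkg (NEMO), the subunit that activation of the complex needs, had a difference of 0.00 (adjusted p 0.992). Nfkbia, an inhibitor that NF-kappaB itself induces in many cells, had -0.11 (adjusted p 0.750).

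In the TRAF family, 6 of 7 genes were tested, 0 were higher, against 7.02% of all genes, 1 was lower, against 8.66%, and 5 did not pass, with a median of -0.05. At an unadjusted p of 0.05, 0 were higher and 2 lower, against 6364 of all 20840 genes in either direction. The lower gene was Traf5, an adaptor of several TNF receptors, with 147, 293 and 157 units on AER replicates 1 to 3 and 413, 584, 207 and 441 units on ectoderm replicates 1 to 4. In unscaled units AER replicate 2 overlapped ectoderm replicate 3, as it did for Eda. Traf5 was 2.41-fold lower in AER (adjusted p 0.00383).

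**Figure D3:**
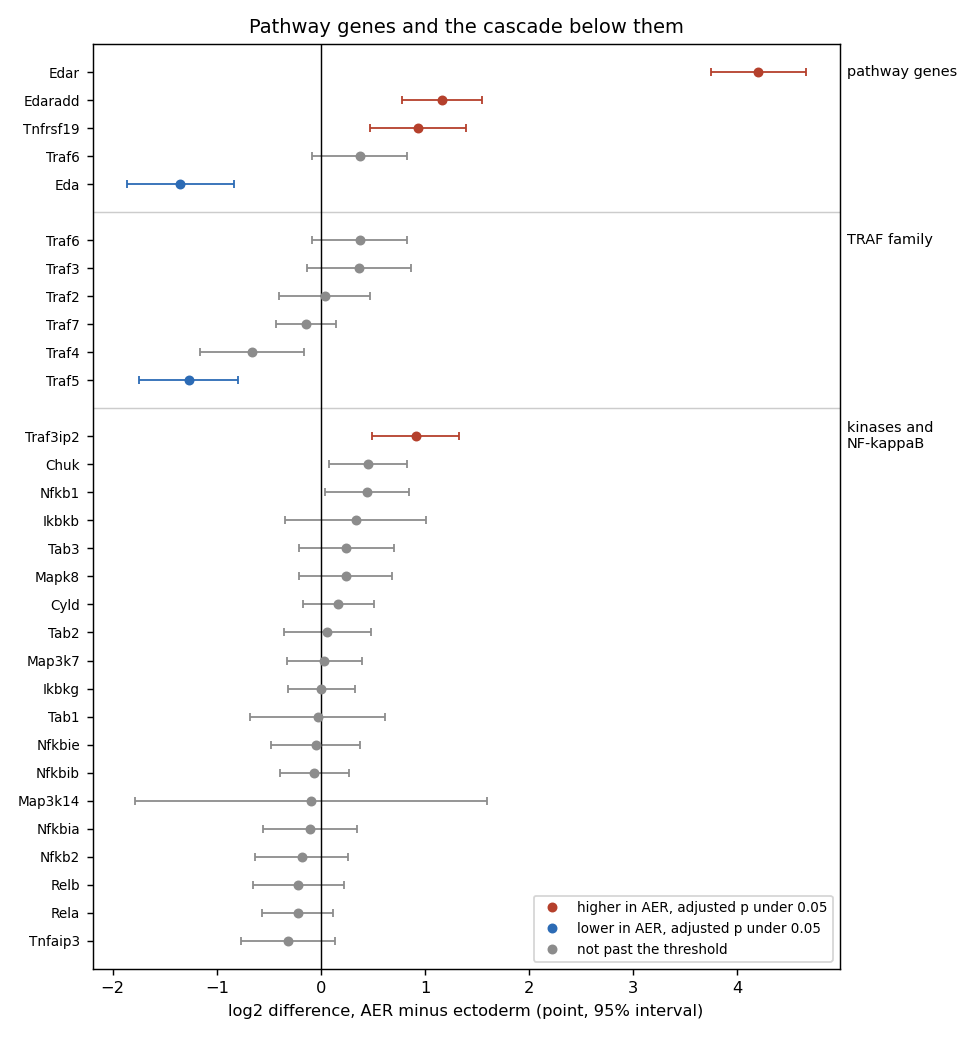
Log2 difference, AER minus ectoderm, with 95% intervals for the tested pathway genes, TRAF family and kinase and NF-kappaB genes. Edar lies farthest to the right, as a fitted value with ectoderm at background, and Eda and Traf5 lie left of 0, whereas Traf3ip2 is the kinase-list gene marked higher relative to the 75th percentile. Edaradd, Tnfrsf19 and Traf3ip2 turn negative when arrays are centred on pan-epithelial markers.

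Among receptors of the TNF superfamily, 20 of 28 genes were tested. Of these 7 were higher in AER, Edar and Tnfrsf19 among them, against 7.02% of all genes. A further 1 was lower, against 8.66%, and 12 did not pass, with a median of 0.56. At an unadjusted p of 0.05, 9 were higher and 3 lower, against 6364 of all 20840 genes in either direction. Under centring on pan-epithelial markers 2 were higher and 17 lower, where 20188 of all 20840 genes passed, 0.802% of these higher. With normexp 4 were higher and 0 lower, where 3579 of all genes passed, 38.7% of these higher. Relt, a receptor whose loss in people affects tooth enamel, gave 394, 688 and 547 units on AER replicates 1 to 3 and 82.5, 65.9, 61.2 and 57.6 units on ectoderm replicates 1 to 4. The AER arrays were all far above the ectoderm arrays. Relt was 6.74-fold higher in AER (adjusted p 4.73e-05), and its log2 difference of 2.75 was 0.84 (adjusted p 0.0207) when centred on pan-epithelial markers. Ngfr, the low-affinity neurotrophin receptor, gave 4965, 11551 and 3849 units in AER and 838, 2156, 538 and 1940 units in ectoderm. It was 4.35-fold higher in AER (adjusted p 0.0104), with 0.21 (adjusted p 0.533) after that centring. Tnfrsf12a, the receptor of the ligand TWEAK, was 2.39-fold higher (adjusted p 0.00135) but had a log2 difference of -0.65 after the centring. Cd40, a receptor best known from B cells, was 1.67-fold higher (adjusted p 0.0107) but had -1.17 after the centring. Its call was lost with normexp (0.32, adjusted p 0.249), in the authors' deposited values (0.33, adjusted p 0.193) and with the label numbers as a replicate block (0.71, adjusted p 0.0743). Tnfrsf21 was higher (0.56, adjusted p 0.0423, -1.35 after the centring) and Tnfrsf14 lower (-1.04, adjusted p 0.0420), and both were named after their values were seen. Tnfrsf21 passed without AER replicate 2 but not without any other single array (adjusted p 0.0533 to 0.118), and Tnfrsf14 passed without AER replicate 1 but not without any other (0.0588 to 0.0968).

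Of the ligands of the superfamily, 17 of 18 were on the array, 6 were tested and 11 lay below the filter. Eda was the 1 that was lower, against 8.66% of all genes, and 0 were higher, against 7.02%. Without adjustment the counts were the same, against 6364 of all 20840 genes in either direction. The other 5 did not pass, with a median of -0.20. Tnfsf12, the gene of TWEAK, which was named after its values were seen, had a log2 difference of -0.34 (adjusted p 0.413).

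**Figure D4:**
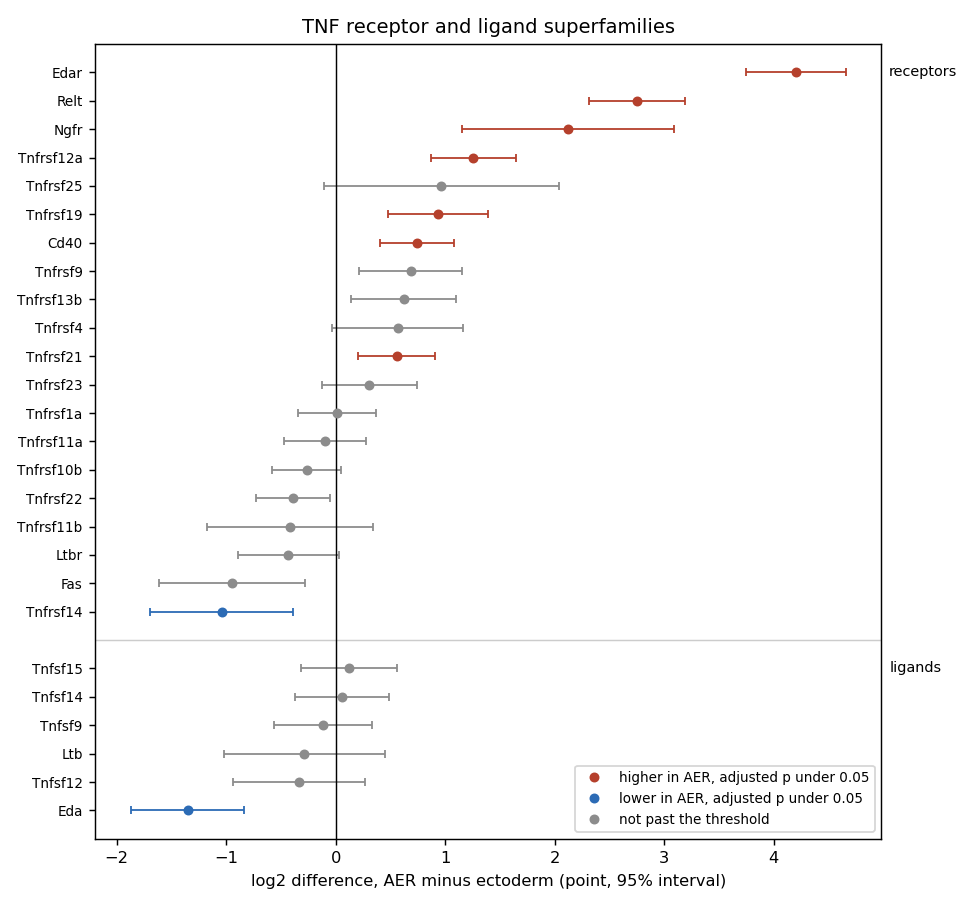
Log2 difference, AER minus ectoderm, with 95% intervals for the tested receptors and ligands of the TNF superfamily. Edar, Relt and Ngfr lie farthest right of 0 among receptors, Edar as a fitted value with ectoderm at background, and Eda is the ligand marked lower. Tnfrsf12a, Tnfrsf19, Cd40 and Tnfrsf21 turn negative when arrays are centred on pan-epithelial markers.

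Genes known elsewhere to process Eda or to act on Eda and Edar expression formed a list of 8, all tested, with 4 higher, against 7.02% of all genes, 1 lower, against 8.66%, 3 not past the threshold and a median of 0.64. Msx2, a homeobox factor of the ridge, gave 23813, 22585 and 29387 units on AER replicates 1 to 3 and 1567, 2302, 2664 and 1766 units on ectoderm replicates 1 to 4. It was 10.4-fold higher in AER (adjusted p 0.000369), and no ectoderm array came near an AER array. Its log2 difference of 3.38 stays positive under the shift of -1.91 from centring on pan-epithelial markers. Msx2 was also chosen as 1 of 15 AER markers, so its higher level is no separate result of this list. The Wnt effectors Tcf7 and Lef1, of which Lef1 controls Eda expression in mouse skin, were 3.50-fold and 2.36-fold higher (adjusted p 0.000643 and 0.000592), but their log2 differences were -0.11 and -0.67 when centred on pan-epithelial markers. The homeobox factor Dlx3 was 2.23-fold higher (adjusted p 0.00387) and had -0.75 after the centring.

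Inhba, the gene of an activin subunit and in mouse skin an inducer of Edar, was lower in AER. It gave 35.5, 30.9 and 10.9 units on AER replicates 1 to 3 and 222, 590, 146 and 505 units on ectoderm replicates 1 to 4. It was above background on 2 of 3 AER arrays and had a fitted log2 difference of -4.02 (adjusted p 0.00104), which includes a value below background. The 3 genes that did not pass, named after their values were seen, were Trp63 (-0.25, adjusted p 0.410), Ctnnb1 (0.12, adjusted p 0.720) and Furin (-0.07, adjusted p 0.803). Furin encodes the protease that releases Eda from the cell surface, and Trp63 the p63 factor that stratified epithelium needs.

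Genes known as targets of Eda and Edar signalling in other ectodermal organs formed a list of 20, with 14 tested. Of these 3 were higher, against 7.02% of all genes, 3 were lower, against 8.66%, and 8 did not pass, with a median of -0.20. At an unadjusted p of 0.05, 4 were higher and 5 lower, against 6364 of all 20840 genes in either direction. The higher genes past the adjusted threshold were Wnt10a and Wnt10b, ligands of placodes, and Lrp4, a receptor that dampens Wnt signalling. Wnt10a gave 2264, 4754 and 3328 units on AER replicates 1 to 3 and 485, 1085, 308 and 849.8 units on ectoderm replicates 1 to 4, and was 4.56-fold higher (adjusted p 0.00177). Wnt10b was 3.91-fold higher (adjusted p 0.0116) and above background on 2 of the 4 ectoderm arrays, with an adjusted p of 0.0516 without AER replicate 2, and Lrp4 was 3.14-fold higher (adjusted p 0.00667). After centring on pan-epithelial markers the log2 differences were 0.28 for Wnt10a, 0.06 for Wnt10b and -0.26 for Lrp4, and none of these passed (adjusted p 0.346, 0.860 and 0.444).

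The lower genes past the adjusted threshold were Fst, Sostdc1 and Madcam1. Fst encodes follistatin, an activin antagonist, and gave 4.85, 20.1 and 23.2 units on AER replicates 1 to 3 and 2008, 1738, 601 and 1453 units on ectoderm replicates 1 to 4. It was above background on 2 of 3 AER arrays and had a fitted log2 difference of -6.90 (adjusted p 3.82e-05), which includes a value below background. The muscle marker Myod1 was likewise low in AER, with 6.30, 19.7 and 22.9 units, against 2285, 2353, 718 and 1865 units in ectoderm, and its part in the Fst difference was not tested. Sostdc1, a secreted antagonist of BMP and Wnt ligands, was 3.09-fold lower in AER (adjusted p 0.00519), with -1.63 from its brighter probe and -1.61 from its other probe. Madcam1, an adhesion molecule, was 2.11-fold lower (adjusted p 0.0166), but its other probe gave a log2 difference of -0.51, and without AER replicate 3 or ectoderm replicate 2 the adjusted p was 0.0532 or 0.0510.

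The placode target genes Dkk4, Fgf20, Foxi3 and Foxq1, together with Cxcl10 and Cxcr3, were below the filter. Shh, a target of the pathway in mouse hair placodes and here named after its values were seen, did not pass (log2 difference 3.61, adjusted p 0.0831). It gave 94.1, 247 and 482 units on AER replicates 1 to 3 and 7.84, 8.90, 152 and 5.35 units on ectoderm replicates 1 to 4, so that ectoderm replicate 3 fell among the AER values.

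**Figure D5:**
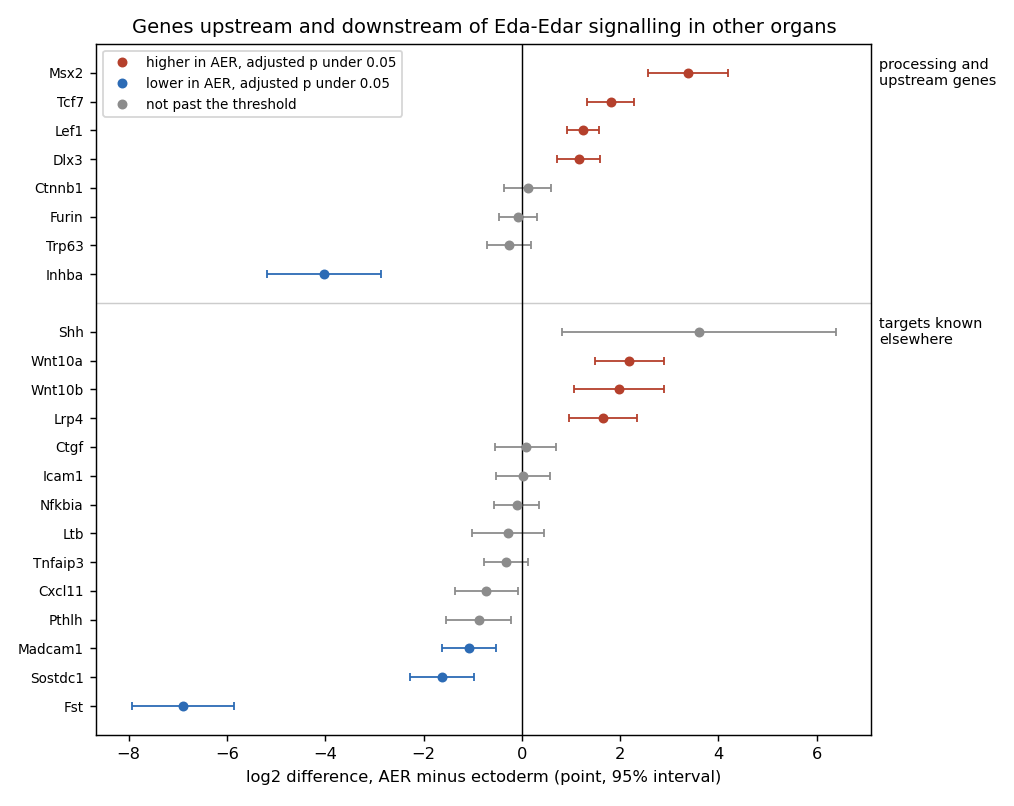
Log2 difference, AER minus ectoderm, with 95% intervals for genes upstream and downstream of Eda and Edar known from other organs. Higher and lower genes stand side by side among the targets, with Wnt10a at 2.19 and Sostdc1 at -1.63. Fst and Inhba lie farthest left, but each was above background on 2 of 3 AER arrays, so their positions include a value below background. Tcf7, Lef1, Dlx3 and Lrp4 turn negative when arrays are centred on pan-epithelial markers.

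The genes with the pattern most like each pathway gene were found by Pearson's r of scaled levels over the 7 arrays among 14136 genes with a RefSeq symbol. Since the arrays form the 2 tissue groups, r mainly follows the difference between them and is given as a description. Nearest to Edar, whose ectoderm values lie at background, were Krt90 (r = 1.00), Slc44a3 (0.999), St14 (0.999), Proser2 (0.999) and Gcg (0.998). Nearest to Edaradd were Ascl4 (0.997), Slc22a15 (0.996), St6galnac5 (0.995), Procr (0.994) and Clic6 (0.993). Nearest to Tnfrsf19 were Parp4 (0.987), Serpinb6b (0.986), Pcdh7 (0.985), Txnip (0.982) and Lcor (0.981). Nearest to Eda were Rbms3 (0.998), Krt15 (0.997), Cpe (0.995), Mst1r (0.994) and Nexn (0.994), all lower in AER. St14, a protease gene of epithelia, is also on the pan-epithelial marker list. The 5 genes nearest to Edar had log2 differences from 2.96 for Proser2 to 6.50 for Gcg, and the 5 nearest to Eda from -5.60 for Krt15 to -0.82 for Cpe.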

How the data were processed

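The authors deposited 1-colour scanner files of 7 Agilent arrays, and per the file headers their processed signal is a linear intensity from which Feature Extraction 10.7.3.1 had subtracted background, without scaling arrays to each other. A deposited matrix on a log2 scale, made with limma per the submitters' processing notes, equals normexp with an offset of 50 plus quantile normalization to within 0.000108, tested on the files. Other deposited columns hold the flags for signal well above background, per the file headers.

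Control and outlying spots were left out (59305 of 62976 spots were not controls), spots of a probe were averaged, and each array's 75th percentile was subtracted from log2 processed signal. Probes above background on at least 3 arrays were kept (28296), and each gene took its brightest kept probe. AER and ectoderm were compared with limma 3.58.1 in R 4.3.3 (lmFit and eBayes, two-sided), with Benjamini-Hochberg adjustment over 20840 genes and a threshold of 0.05. The script was tested on simulated data. The number of arrays limits precision.

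Every pathway gene and probe was named, with up to 6 genes past the threshold with the smallest p per list and the 5 nearest genes by correlation. The genes, lists and most alternatives were chosen with earlier results of these data known. Promoter sequences are from RefSeq. Exons and untranslated regions under probes were not looked up. Python 3.11.15, pandas 2.3.3, scipy 1.17.1 and matplotlib 3.10.9 were used.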

Additional observations from a re-analysis of the deposited data

Results flagged for a closer look

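The Eda2r probe on chromosome X read 73.8 units on ectoderm replicate 2 and stayed below background on the other 3 ectoderm arrays, where the highest was 5.99 units. The gap from this array to its nearest neighbour was 0.926 of the group's whole log2 range, above Dixon's critical value for 4 samples. Ectoderm replicate 4, which carries the same number as replicate 2 in its file name and was the closest array to it across genes, read 5.41 units. Chance alone marks about 1 in 20 groups in this way, and 11 probes were examined.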

How the results depend on the processing

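Up to 24 alternatives were computed for each result. Centring on pan-epithelial markers moved the median log2 difference over all genes to -1.99 and the number of differing genes, 3268 as reported, to 20188 (0.802% higher in AER). It turned Edaradd to -0.75 (adjusted p 0.0146), Tnfrsf19 to -0.98 (0.00394) and Traf6 to -1.54 (0.000255). The fitted Edar difference was then 2.29 and that of Eda -3.26. All of this follows from the uniform change of -1.91 in every log2 difference, and the 5 pathway genes then past the threshold are no sign of stability. Edaradd and Tnfrsf19 lay above that shifted median and Eda below it, an order that a uniform shift cannot change. Taking the 75th percentile over probes above background on every array moved the median from -0.08 to 0.02 and raised the share of higher calls from 44.8% to 57.4%.

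Within slide row 1, 651 genes and within row 2, 1389 genes passed, and 1 of the 5 pathway genes passed in each row (Edar, whose ectoderm values lie at background). In rows 1 and 2, Eda was -1.58 and -1.39, Edaradd 1.02 and 1.20, and Tnfrsf19 0.84 and 0.88, none past the threshold, in fits that have 1 array in a group. Tnfrsf19 also missed the threshold with normexp (0.56), with normexp and quantile normalization and in the authors' deposited values (0.63 in each), and with slide row as a block (0.86). Leaving out 1 array at a time gave 2201 to 3278 differing genes, 4 of 5 pathway genes each time, and log2 differences of -1.52 to -1.20 for Eda, 4.03 to 4.40 for Edar, 1.08 to 1.25 for Edaradd, 0.76 to 1.04 for Tnfrsf19 and 0.19 to 0.55 for Traf6.

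Same-numbered AER and ectoderm arrays correlated at -0.03, 0.19 and 0.13 in their deviations from the group means. The same number was the best match for AER replicates 2 and 3, while AER replicate 1 correlated best with ectoderm replicate 3 (0.18). These correlations do not decide whether the label numbers are a pairing, and the reported fit used none. The label numbers gave 2443 differing genes as a replicate block, with Edar at 4.22, Eda at -1.29, Edaradd at 1.18 and Traf6 at 0.33. Tnfrsf19 missed the threshold there (0.98, adjusted p 0.0543). The replicate block by file-name numbers, chosen after seeing the data, gave 3296 genes and kept all 4 pathway calls. Edar had no value under the filter for probes above background on all 7 arrays, and Eda2r passed no filter but the absence of one, where its probes gave -1.36 (adjusted p 0.370) and 0.31 (0.579). Over all alternatives, row fits included, the adjusted p ran from 2.74e-08 to 0.0993 for Eda, 0.00125 to 0.191 for Edaradd and 0.00394 to 0.486 for Tnfrsf19. The Eda difference and the fitted Edar difference were smaller under normexp, and signals near background carry no order.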
